A study of Mus musculus with 32 samples.

Results

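The passage of epidermal cells through the G1 phase of the cell cycle was followed by 10 genes, the G1 cyclins Ccnd1, Ccnd2, Ccnd3, Ccne1 and Ccne2 and the CDK inhibitors Cdkn1b, Cdkn1c, Cdkn2a, Cdkn2b and Cdkn2c. They were matched by symbol to the 55401 gene identifiers of the count files, and all 10 were found once. Cdkn1a, the remaining Cip/Kip gene, was not included. The epidermis of 32 mice, 1 RNA-seq library each, was sequenced in 8 groups of 4 defined by genotype, sex and exposure. Wild type mice (WT) and mice deficient for PPARβ (KO, Ppard -/-), both of the SKH-1/SV129/BL6/J background, were 10 to 14 weeks old. UV mice received a single sub-erythematous dose of 120 mJ/cm2 on the back and were sampled after 24 h, and Control mice were sham manipulated. The Ppard deletion is labelled only as -/-, so the part of the gene removed and the cells that lack it are not described further here.

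Cyclins are the regulatory subunits that switch on cyclin-dependent kinases (CDKs). D-type cyclins pair with CDK4 and CDK6 and respond to growth signals, and E-type cyclins pair with CDK2 later in G1. Both kinases phosphorylate the pocket proteins, which include the retinoblastoma protein, and thereby release E2F transcription factors for entry into S phase. INK4 inhibitors bind CDK4 and CDK6, whereas Cip/Kip inhibitors bind complexes of cyclins with CDKs. In epidermis, this machinery separates the dividing basal layer from the differentiating layers above it, and much of its control acts on protein stability, which mRNA levels do not show.

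Library depth ranged from 22919428 to 40653581 gene-assigned reads, with a median of 27600228. Levels are given as cpm, the reads of a gene per 1000000 reads of the library after TMM scaling, and differences as log2 fold changes ± SE from edgeR's quasi-likelihood fit of 15546 genes, called at a Benjamini-Hochberg adjusted p under 0.05. Ppard reads remained in KO mice. The gene lay between 70.3 and 88.9 cpm in KO Control mice against 87.3 to 105 cpm in WT Control mice, and between 175 and 239 cpm against 252 to 326 cpm after UV. Whole-gene counts do not resolve a deleted part, so they do not check the genotype labels. In mouse 54F, a KO female after UV, 7 dermal fibroblast markers summed to 2184 cpm, while the other 31 mice lay between 1.86 and 98.4 cpm. Skeletal muscle markers summed to more than 1000 cpm in 9 libraries, 3 of KO UV mice and 2 of each other genotype and state. Most were females (44F, 52F, 54F, 59F, 60F, 63F and 71F), and the males were 38M and 58M. Basal keratinocyte markers (Krt14 and others) summed to 5622 to 29953 cpm per mouse, so the defining genes of the labelled tissue were present in all libraries.

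Of the 10 genes, 8 reached 1 cpm in every mouse. Cdkn1c passed the filter of 1 cpm in at least 1 mouse only through mouse 54F, and Cdkn2a only through the Control mice 34M, 43M and 69F. Those 2 genes are therefore described apart, since a gene that passes through the group in which it is high is bound to differ. Per kilobase of exon, Cdkn2b had the highest level of the 10 in WT Control mice, 29.4 ± 6.30 cpm per kb (SD, n = 8), followed by Cdkn1b (14.5 ± 2.33), Cdkn2c (11.0 ± 1.38), Ccnd1 (9.30 ± 3.01), Ccnd2 (5.37 ± 0.531) and Ccnd3 (3.19 ± 0.261). Cdkn2c and Ccnd1 lay within their spread of each other. The E-type cyclins were lower, at 1.37 ± 0.531 cpm per kb for Ccne2 and 1.08 ± 0.276 for Ccne1, again within their spread. Cdkn2a (0.514 ± 0.357) and Cdkn1c (0.0641 ± 0.0530) came last. In WT UV mice, Ccnd1 stood first at 27.0 ± 2.78 cpm per kb, above Cdkn2b at 11.7 ± 2.41 and Cdkn2c at 7.41 ± 0.838. KO mice had the same order as WT mice for the first 6 genes in each state. The order of genes depends on exon length taken as the union of all annotated exons, since the transcripts in use were not resolved.

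**Figure D1:**
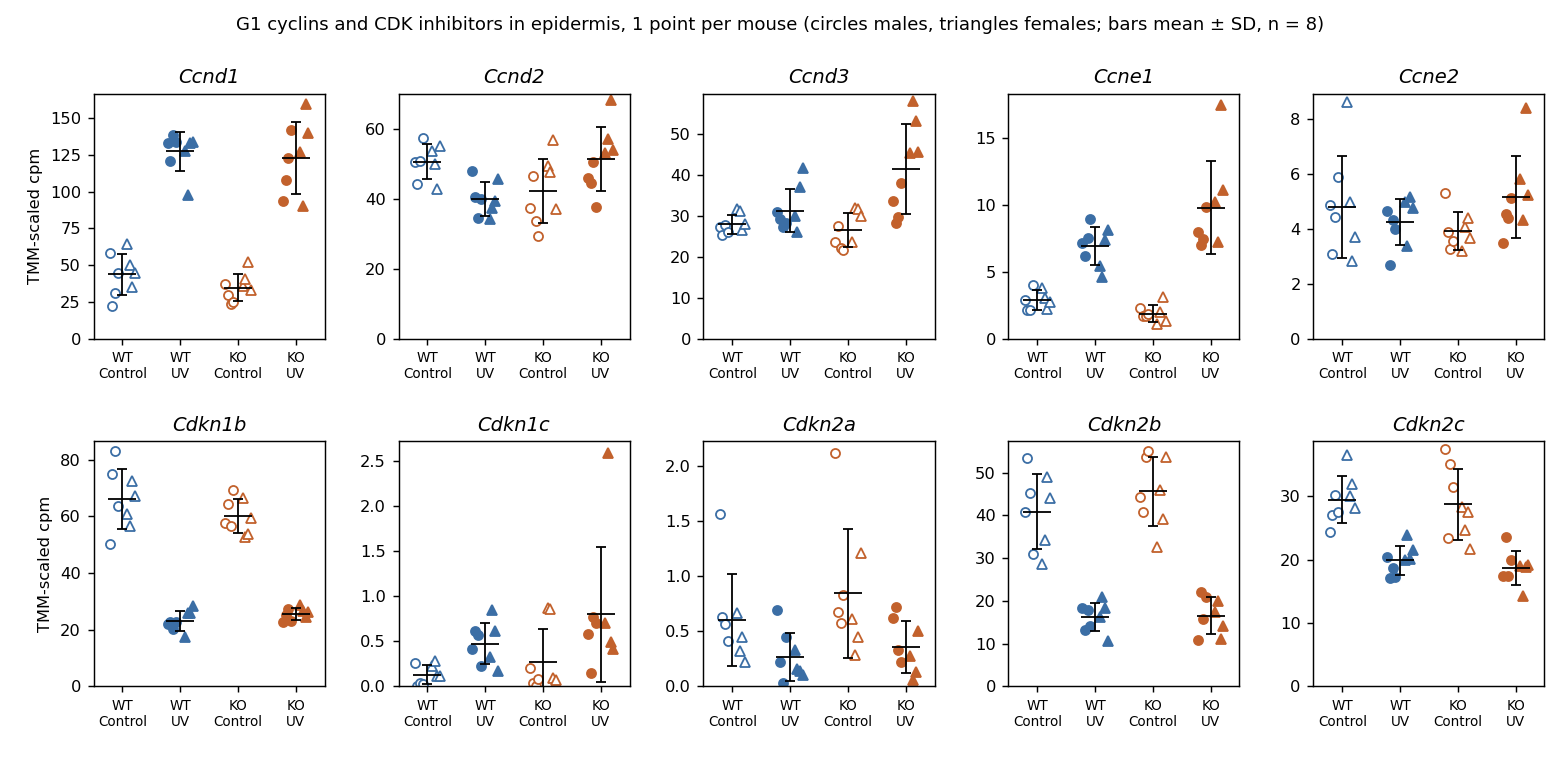
TMM-scaled cpm (vertical axes, linear from 0, a scale of its own for each gene) of the 10 genes in WT and KO mice, Control and UV, with 1 point per mouse, circles for males, triangles for females, and bars for the mean ± SD of 8 mice. The UV mice lie above the Control mice without overlap for Ccnd1 and Ccne1 and below them for Cdkn1b and Cdkn2b in both genotypes, and the single KO UV triangle at 2.58 cpm of Cdkn1c is mouse 54F.

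The first comparison asked how each gene responded to UV within a genotype. Of the 15546 genes tested, 11039 were called in WT mice and 11001 in KO mice, so that a call by itself sets no gene apart. Of the 8 genes at 1 cpm in every mouse, 2 rose (Ccnd1, Ccne1) beside 34.5% of all genes, 4 fell (Ccnd2, Cdkn1b, Cdkn2b, Cdkn2c) beside 36.5%, and 2 were not called. In KO mice, 4 of the 8 rose (Ccnd1, Ccnd2, Ccnd3, Ccne1) beside 37.3% of all genes, 3 fell (Cdkn1b, Cdkn2b, Cdkn2c) beside 33.5%, and 1 was not called. Over all 10 genes, the median log2 change was -0.26 in WT mice, beside -0.01 for all genes, and 0.33 in KO mice, beside 0.09. The values of UV and Control mice did not overlap for 5 of the 8 in WT mice and 4 of the 8 in KO mice, against 43.4% and 35.1% of all genes. Within 1 sex, 6 of the 8 were called in WT males, WT females and KO males and 7 in KO females, where 60.9%, 61.3%, 61.7% and 60.7% of all genes were called. In bulk epidermis, fewer cells of a type and less RNA per cell cannot be told apart. Markers of suprabasal keratinocytes summed to 63430 to 74018 cpm in WT Control mice and 10820 to 24638 cpm in WT UV mice, with 58265 to 102062 and 6618 to 29240 cpm in KO mice. In WT mice, the sum of basal keratinocyte markers went the other way. It was 7505 to 16674 cpm without UV and 17358 to 29953 cpm after UV. The sums in KO mice were 5622 to 12235 and 16961 to 29498 cpm, with no overlap in either genotype. Gene by gene, 6 of the 7 suprabasal markers fell and 1 rose in each genotype. Krt1 and Krt10 had medians of 16836 and 20621 cpm over all mice, against at most 1760 cpm for the other suprabasal markers. Of the 7 basal markers, 3 rose and 2 fell in WT mice, and 5 rose and 1 fell in KO mice. Krt15 had the largest change, at -6.08 ± 0.30 in WT and -5.18 ± 0.29 in KO mice. Krt14 changed by 1.70 ± 0.22 and 2.00 ± 0.22. The part of these shifts in the changes below was not tested.

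**Figure D2:**
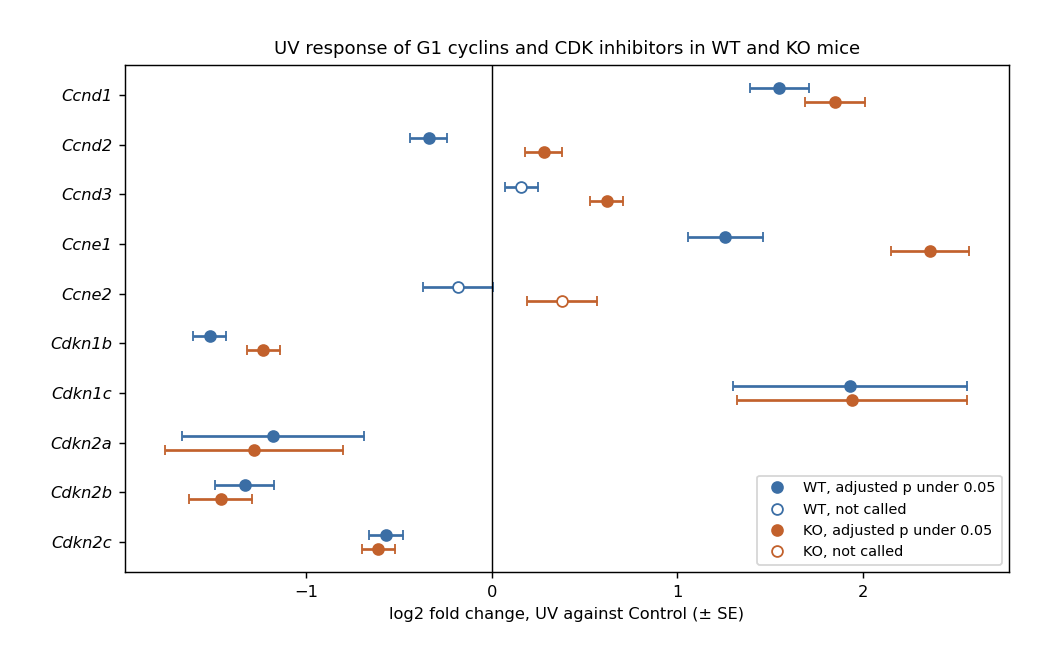
Log2 fold change of UV against Control mice (horizontal axis, bars ± SE) for the 10 genes (vertical axis) in WT (blue) and KO (orange) mice, 8 against 8 in each genotype, with open points for genes not called. Cdkn1b, Cdkn2a, Cdkn2b and Cdkn2c lie left of 0 in both genotypes, Ccnd1, Ccne1 and Cdkn1c right of 0, and Ccnd2 on opposite sides at -0.34 in WT and 0.28 in KO mice. Cdkn1c passed the filter only through the KO UV mouse 54F and Cdkn2a only through the Control mice 34M, 43M and 69F. The filter thus favoured the side of Cdkn2a in both genotypes and that of Cdkn1c in KO mice.

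Among the D-type cyclins, Ccnd1 (cyclin D1, the member most closely tied to growth factor and Wnt signals) rose in both genotypes. In WT mice, it ranged from 22.3 to 64.6 cpm (median 44.4) without UV and from 97.7 to 139 cpm (median 133) after UV. In KO mice, it ranged from 23.8 to 51.98 cpm (median 34.6) and from 90.1 to 160 cpm (median 125). Every UV mouse of either genotype thus lay above every Control mouse. The log2 fold change was 1.55 ± 0.16 in WT mice (2.92-fold, adjusted p = 2.33e-09) and 1.85 ± 0.16 in KO mice (3.59-fold, adjusted p = 9.97e-11). The rise was called in each sex, at 1.76 ± 0.23 in WT males, 1.34 ± 0.23 in WT females, 2.02 ± 0.23 in KO males and 1.67 ± 0.23 in KO females. The difference between the genotypes' responses, 0.30 ± 0.23, was not called (adjusted p = 0.489). The exons of Ccnd1 share 1100 bases with those of LTO1 on the opposite strand, and the strand setting of the counting is not given in the sources used here.

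Ccnd2 (cyclin D2) was the only one of the 10 genes whose called responses had opposite signs in WT and KO mice. In WT males, it measured 50.6, 44.3, 50.8 and 57.4 cpm without UV and 47.8, 40.5, 34.6 and 39.8 cpm after UV. In WT females, the values were 53.6, 49.8, 42.8 and 55.0 cpm without UV and 34.3, 37.3, 39.3 and 45.5 cpm after UV. The UV mice were therefore mostly lower, with 1 overlapping value in each sex. In KO males, it measured 37.2, 46.4, 33.7 and 29.4 cpm without UV and 45.9, 44.4, 50.5 and 37.7 cpm after UV. In KO females, the values were 49.3, 47.6, 56.9 and 36.9 cpm without UV and 53.0, 57.1, 68.1 and 53.8 cpm after UV. Here the UV mice were mostly higher, and both sexes overlapped with their controls. The log2 fold change was -0.34 ± 0.10 in WT mice (1.27-fold lower, adjusted p = 0.00262) and 0.28 ± 0.10 in KO mice (1.22-fold higher, adjusted p = 0.0109). Males and females gave nearly the same estimates, -0.32 ± 0.14 and -0.36 ± 0.14 in WT mice and 0.28 ± 0.14 in each sex of KO mice. Within a single sex, the WT estimates were called and the KO estimates were not (adjusted p = 0.0744 in males and 0.0754 in females). Without mouse 52M, the KO change was 0.22 (adjusted p = 0.0559).

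Ccnd3 (cyclin D3) was called in KO mice and not in WT mice. It ranged from 25.3 to 31.6 cpm (median 27.5) in WT Control mice and from 26.0 to 41.6 cpm (median 29.6) in WT UV mice, a log2 change of 0.16 ± 0.09 (adjusted p = 0.100). The WT change was called without 54F, 57F, 61F or 62F (0.20 to 0.23, adjusted p of 0.0154 to 0.0418). In KO mice, it ranged from 21.7 to 31.9 cpm (median 25.6) without UV and from 28.2 to 58.1 cpm (median 41.7) after UV, a change of 0.62 ± 0.09 (1.53-fold, adjusted p = 4.39e-07). Much of the KO range came from the sexes. After UV, KO females measured 45.4, 58.1, 53.1 and 45.6 cpm, above the highest value of the other 28 mice (41.6 cpm), and KO males measured 33.6, 28.2, 29.7 and 37.98 cpm. The response was 0.79 ± 0.12 in KO females and 0.45 ± 0.12 in KO males, both called, and the sex-by-UV interaction in KO mice, 0.34 ± 0.17, was not (adjusted p = 0.555). The highest value, 58.1 cpm, was that of mouse 54F. Ccnd3 lies on the chromosome of Ppard, 19.2 Mb away, so that an effect of the deletion and of alleles linked to it cannot be told apart for this gene. Its exons share 361 bases with those of Bysl on the opposite strand.

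On the scale of cpm per kb, UV changed the make-up of the D-type cyclin mRNAs in both genotypes, which is described here without a test. Ccnd1 made up 50.9% ± 7.38 (SD, n = 8) of their sum in WT Control mice and 77.5% ± 2.27 in WT UV mice, and 49.1% ± 3.60 and 71.7% ± 5.37 in KO mice. Ccnd2 went from 30.8% ± 4.80 to 12.2% ± 1.49 in WT mice and from 30.2% ± 2.85 to 15.2% ± 2.47 in KO mice. Their sum was 17.9 ± 3.50 cpm per kb in WT Control mice, 34.8 ± 3.25 in WT UV mice, 14.9 ± 3.19 in KO Control mice and 36.3 ± 6.07 in KO UV mice. On this scale, the summed D-type cyclin mRNA was therefore larger after UV, with Ccnd1 as its largest part. The scale divides by the union of all annotated exons, 4709 bases for Ccnd1, 9409 for Ccnd2 and 8775 for Ccnd3. Shorter transcripts in use would change the shares of the genes, and which transcripts were used was not tested.

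**Figure D3:**
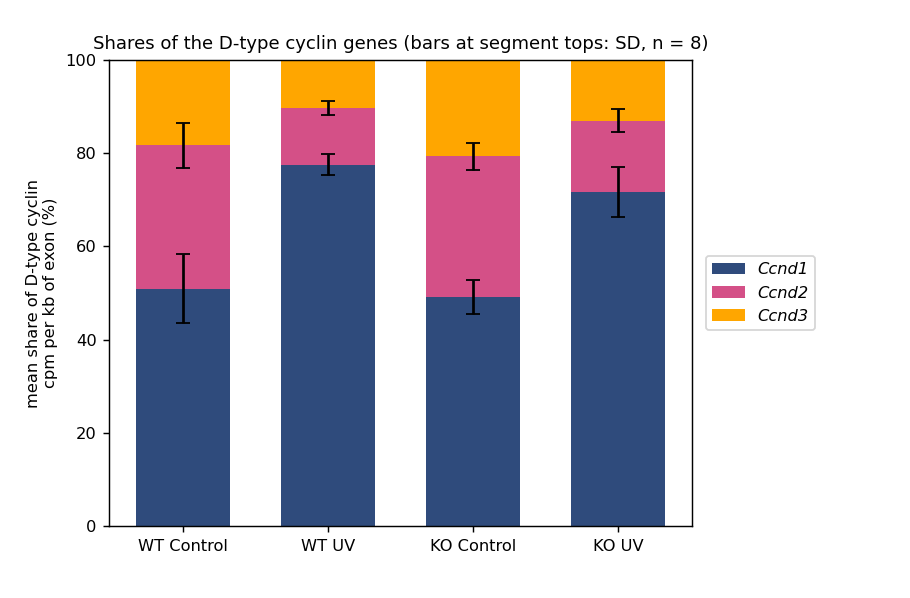
Mean share (vertical axis, percent from 0) of Ccnd1, Ccnd2 and Ccnd3 in the summed cpm per kb of exon of the D-type cyclins in each genotype and state (horizontal axis), with error bars at the tops of the Ccnd1 and Ccnd2 segments for the SD of that gene's share over 8 mice. Ccnd1 takes 50.9% of the sum in WT Control and 77.5% in WT UV mice.

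Of the E-type cyclins, Ccne1 was called in both genotypes and Ccne2 in neither. Ccne1 (cyclin E1) ranged from 2.10 to 4.01 cpm (median 2.85) in WT Control mice and from 4.58 to 8.93 cpm (median 7.23) in WT UV mice. In KO mice, it ranged from 1.08 to 3.13 cpm (median 1.76) and from 7.03 to 17.5 cpm (median 8.91). The UV mice lay above the Control mice in both genotypes without overlap. It rose by 1.26 ± 0.20 in WT mice (2.39-fold, adjusted p = 3.40e-06) and by 2.36 ± 0.21 in KO mice (5.14-fold, adjusted p = 9.18e-11) on the log2 scale. The counts behind these values ranged from 30 to 535 reads per mouse. Ccne2 (cyclin E2) had medians of 4.64 cpm in WT Control, 4.48 in WT UV, 3.77 in KO Control and 4.84 in KO UV mice, with overlapping ranges throughout. Its log2 changes were -0.18 ± 0.19 in WT mice (adjusted p = 0.412) and 0.38 ± 0.19 in KO mice (adjusted p = 0.0761). Within KO females it was called, at 0.63 ± 0.27 (adjusted p = 0.0452), and the sex-by-UV interaction was not. Without 34M, 54F or 61F, the change over all KO mice was called as well, with an adjusted p of 0.0312 to 0.0403. Ccne2 shares 609 exon bases with Ints8 on the other strand.

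Cdkn1b (p27, the Cip/Kip inhibitor of cyclin E and CDK2 complexes that accumulates in resting cells) fell in both sexes of both genotypes. It ranged from 50.2 to 83.2 cpm (median 65.4) in WT Control mice and from 17.5 to 28.5 cpm (median 22.8) in WT UV mice. In KO mice, the ranges were 52.9 to 69.2 cpm (median 58.6) and 22.8 to 28.9 cpm (median 25.7). Every UV mouse lay below every Control mouse. The log2 change was -1.52 ± 0.09 in WT mice (2.86-fold lower, adjusted p = 5.74e-14) and -1.23 ± 0.09 in KO mice (2.35-fold lower, adjusted p = 3.95e-12). Over the sexes and genotypes, the change ran from -1.63 ± 0.13 in WT males to -1.13 ± 0.13 in KO females, and the sex-by-UV interactions and the genotype-by-UV interaction of Cdkn1b were not called.

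Cdkn1c (p57, an imprinted Cip/Kip gene of differentiating and resting cells) was close to the detection limit. WT Control mice held 0 to 7 reads and WT UV mice 5 to 22, which corresponded to medians of 0.110 and 0.490 cpm. In KO mice, 0 to 24 reads were counted without UV (median 0.0881 cpm) and 4 to 89 after UV (median 0.640 cpm). The groups overlapped in both genotypes. The fitted log2 changes were 1.93 ± 0.63 in WT mice (adjusted p = 0.00828) and 1.94 ± 0.62 in KO mice (adjusted p = 0.00652). The highest value, 2.58 cpm, came from mouse 54F, and the other 7 KO UV mice lay between 0.144 and 0.765 cpm. Without that mouse, no library reached 1 cpm and the gene left the fit. Over the 32 mice, after subtraction of the group means, log2 cpm of Cdkn1c and the log2 fibroblast marker sum had a Pearson r of 0.59, and with the skeletal muscle marker sum r was 0.56, given as a description of libraries that share depth and scaling. The part of either in the Cdkn1c values was not tested.

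**Figure D4:**
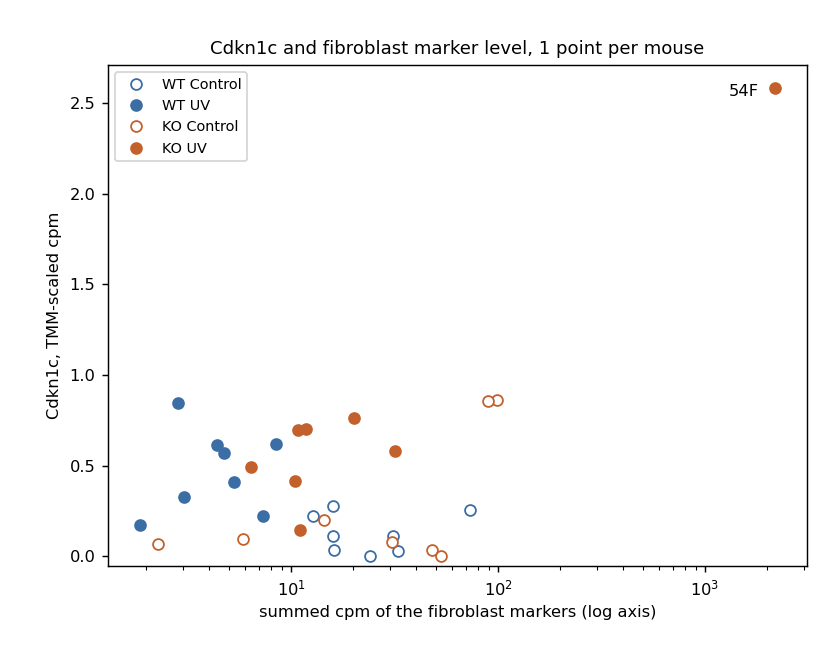
Cdkn1c in TMM-scaled cpm (vertical axis, linear) against the summed cpm of 7 dermal fibroblast markers (horizontal axis, log scale), with 1 point per mouse, blue for WT, orange for KO, open for Control and filled for UV. Mouse 54F stands alone at 2184 cpm of fibroblast markers and 2.58 cpm of Cdkn1c, and the highest of the other mice has 0.863 cpm of Cdkn1c.

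The INK4 genes Cdkn2b and Cdkn2c fell after UV. Cdkn2b (p15, induced by TGFβ signals in keratinocytes) ranged from 28.7 to 53.5 cpm (median 42.5) in WT Control mice and from 10.6 to 21.0 cpm (median 17.0) in WT UV mice. In KO mice, it ranged from 32.7 to 55.1 cpm (median 45.2) and from 10.8 to 22.1 cpm (median 16.6). The UV and Control mice did not overlap in either genotype. It fell by 1.33 on the log2 scale in WT mice (SE 0.16, adjusted p = 4.35e-08) and by 1.46 in KO mice (SE 0.17, adjusted p = 8.98e-09). Cdkn2c (p18) ranged from 24.4 to 36.6 cpm (median 29.1) in WT Control and from 17.1 to 23.9 cpm (median 20.0) in WT UV mice, and from 21.7 to 37.5 cpm (median 27.9) and 14.2 to 23.6 cpm (median 18.9) in KO mice. Its ranges separated in WT mice and overlapped in KO mice. The log2 change was -0.57 ± 0.09 in WT mice (adjusted p = 3.59e-06) and -0.61 ± 0.09 in KO mice (adjusted p = 1.24e-06), smaller in size than those of Cdkn1b and Cdkn2b, and was called in each sex of each genotype.

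Cdkn2a, which encodes both an INK4 protein and the unrelated ARF protein that stabilises p53, was scarce in all groups. It ranged from 0.219 to 1.57 cpm (median 0.504) in WT Control, 0.0299 to 0.697 cpm (median 0.186) in WT UV, 0.286 to 2.12 cpm (median 0.642) in KO Control and 0.0580 to 0.721 cpm (median 0.302) in KO UV mice. The groups overlapped, with 1 to 53 reads per mouse. The fitted log2 changes were -1.18 ± 0.49 in WT mice (adjusted p = 0.0338) and -1.28 ± 0.48 in KO mice (adjusted p = 0.0194), and no single sex gave a call. The gene passed the filter only through the Control mice 34M, 43M and 69F. Its selection therefore favoured a fall after UV in both genotypes, and the calls cannot be read as a test of one. Without 38M, 43M, 57F, 57M, 59F, 61F or 77F, the WT call was lost, with an adjusted p of up to 0.108, and the KO call was lost without 34M or 69F, with up to 0.0684. Without the muscle-rich libraries, neither was called, at -1.07 ± 0.62 (adjusted p = 0.128) and -1.34 ± 0.64 (adjusted p = 0.0737). Gene counts do not separate the transcripts of the 2 proteins.

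The summed level of Cdkn1b, Cdkn2b and Cdkn2c was 54.9 ± 7.70 cpm per kb (SD, n = 8) in WT Control mice and 24.2 ± 2.94 in WT UV mice, with 56.8 ± 6.52 and 24.5 ± 3.62 in KO mice. Divided mouse by mouse by the D-type cyclin sum, it went from 3.26 ± 1.14 to 0.704 ± 0.156 in WT mice and from 4.04 ± 1.30 to 0.693 ± 0.159 in KO mice. The mean ratio was thus lower after UV in both genotypes, which describes genes chosen with their responses known and is given without a test. Its position relative to 1 depends on the exon lengths and on the genes summed, and has no meaning of its own.

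The start sites of 3 inhibitors that fell (Cdkn1b, Cdkn2b, Cdkn2c) and of the E-type cyclin that rose (Ccne1) are shown. These genes reached 1 cpm in every mouse, were called in both genotypes and had a window at hand. Ccnd1 had no window, and Cdkn2a, called in both genotypes as well, was under 1 cpm in most mice. The sequences are RefSeq windows of 300 bases on GRCm38.p6, most of them upstream of the start site, 5′ to 3′ on the gene's strand. Capitals mark GC boxes, searched as GGGCGG. They also mark cAMP response elements, searched as TGACGTCA, and the box spelled CCAAT. Each motif was searched on either strand, and none overlaps another here. Cdkn1b lies at chr6:134920151-134920450 on the plus strand, Cdkn2b at chr4:89310983-89311282, Cdkn2c at chr4:109666707-109667006 and Ccne1 at chr7:38107441-38107740, all 3 on the minus strand.
Cdkn1b: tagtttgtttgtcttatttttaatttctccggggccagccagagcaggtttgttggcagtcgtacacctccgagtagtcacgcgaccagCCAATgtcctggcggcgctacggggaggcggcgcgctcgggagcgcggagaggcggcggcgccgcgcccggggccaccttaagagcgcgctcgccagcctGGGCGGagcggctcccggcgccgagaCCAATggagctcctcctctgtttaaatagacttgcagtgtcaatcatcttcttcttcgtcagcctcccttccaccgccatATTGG
Cdkn2b: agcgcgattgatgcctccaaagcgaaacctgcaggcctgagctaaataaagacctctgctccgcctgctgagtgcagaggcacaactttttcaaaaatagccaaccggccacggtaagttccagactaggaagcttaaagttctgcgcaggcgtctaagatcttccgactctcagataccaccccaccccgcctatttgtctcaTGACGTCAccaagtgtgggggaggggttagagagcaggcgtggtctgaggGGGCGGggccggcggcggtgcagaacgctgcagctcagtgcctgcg
Cdkn2c: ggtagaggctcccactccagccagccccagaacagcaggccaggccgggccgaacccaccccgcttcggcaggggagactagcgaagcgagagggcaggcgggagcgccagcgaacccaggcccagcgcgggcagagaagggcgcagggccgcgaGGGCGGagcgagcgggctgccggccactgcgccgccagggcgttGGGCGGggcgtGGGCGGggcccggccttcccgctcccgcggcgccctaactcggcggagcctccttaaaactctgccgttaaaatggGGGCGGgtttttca
Ccne1: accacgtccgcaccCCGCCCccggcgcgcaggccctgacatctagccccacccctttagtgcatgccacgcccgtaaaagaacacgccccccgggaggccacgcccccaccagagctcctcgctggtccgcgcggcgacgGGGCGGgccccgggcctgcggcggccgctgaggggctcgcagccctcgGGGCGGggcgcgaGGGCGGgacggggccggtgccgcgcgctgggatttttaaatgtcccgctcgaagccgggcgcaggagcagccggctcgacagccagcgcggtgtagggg

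The Cdkn1b window held 3 CCAAT boxes and 1 GC box, that of Cdkn2b 1 GC box and 1 cAMP response element, and those of Cdkn2c and Ccne1 4 GC boxes each. A second window of Cdkn2c, at chr4:109665323-109665622 and not printed, held no GC box and 1 CCAAT box. GC boxes were present in 35.7% of all 32851 windows of this length, CCAAT boxes in 37.4% and the cAMP response element in 1.79%. No motif was common to the 3 inhibitors and absent from Ccne1. A window with an E2F match (TTTCCCGC, TTTGGCGC or TTTCGCGC, in 1.84% of windows) was found only for Cdkn2a, in the upstream of its 2 windows. Windows were at hand for 6 of the 10 genes, with 2 each for Ccnd3, Cdkn2a and Cdkn2c. Ccnd1, Ccnd2, Ccne2 and Cdkn1c had none.

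The second comparison asked whether genotype changed these genes. Without UV, none of the 10 was called between KO and WT mice by edgeR, DESeq2 or limma-trend, where edgeR called 0.206% of all genes. At an unadjusted p under 0.05, which 8.52% of all genes reached, 3 of the 10 were lower in KO mice, Ccne1 (-0.62 ± 0.20, adjusted p = 0.319), Ccnd1 (-0.35 ± 0.16, adjusted p = 0.559) and Ccnd2 (-0.27 ± 0.10, adjusted p = 0.399). After UV, 2 of the 10 were called, Ccnd3 and Ccnd2, both higher in KO mice, beside 3.31% of all genes called and 2.69% called higher. Ccnd3 differed by 0.37 ± 0.09 on the log2 scale (1.30-fold, adjusted p = 0.0207) and Ccnd2 by 0.35 ± 0.10 (1.28-fold, adjusted p = 0.0434). For no gene of the 10 were the 8 KO UV mice and the 8 WT UV mice fully apart, as they were for 0.187% of all genes. Both calls were lost without mouse 54F, with an adjusted p of 0.0585 for Ccnd3 and 0.0858 for Ccnd2 at log2 differences of 0.32 and 0.34, and Ccnd2 was called in 14 of 32 fits that left out 1 mouse. The Ccnd3 call was also lost without 51F, 57F or 58M, with an adjusted p of up to 0.0632. Without the 9 muscle-rich libraries, the differences were 0.35 ± 0.11 for Ccnd3 (adjusted p = 0.203) and 0.36 ± 0.14 for Ccnd2 (adjusted p = 0.286), so that the sizes were kept and the calls were not. All 7 dermal fibroblast markers were called higher in KO than in WT UV mice, with a median log2 difference of 4.48, and their sum lay between 6.43 and 31.6 cpm in the KO UV mice other than 54F and between 1.86 and 8.44 cpm in WT UV mice. With that sum as a covariate, neither call remained, at 0.35 ± 0.10 for Ccnd3 (adjusted p = 0.136) and 0.33 ± 0.11 for Ccnd2 (adjusted p = 0.190). None of the inhibitors was called by genotype in either state, with log2 differences after UV of 0.14 ± 0.09 for Cdkn1b, 0.03 ± 0.16 for Cdkn2b and -0.09 ± 0.09 for Cdkn2c.

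The genotype-by-UV interaction, the UV response of KO minus that of WT mice, was called for 1 of the 10 genes, Ccnd2, beside 0.765% of all genes called and 0.515% called with a positive sign. It was 0.62 ± 0.14 on the log2 scale, a 1.54-fold difference between the responses (adjusted p = 0.0254). The interaction was 0.46 ± 0.12 for Ccnd3 (adjusted p = 0.0663) and 1.11 ± 0.28 for Ccne1 (adjusted p = 0.0566), neither called, though both were with DESeq2 (adjusted p = 0.0273 and 0.0139). With the fibroblast marker level as a covariate, the 1 gene called was Ccne1 (1.32 ± 0.28, adjusted p = 0.0461) and no longer Ccnd2. Ccnd3 was also called without 44M, 52F, 59M, 71F or 77F (0.46 to 0.51), and Ccne1 without 52F, 54F, 54M, 56M, 59M, 62F, 71F or 77F (1.11 to 1.27). All 5 cyclins had a positive estimate, with 0.30 ± 0.23 for Ccnd1 and 0.56 ± 0.27 for Ccne2, beside a median of 0.04 over all genes. After subtraction of group means, Ccnd1, Ccne1 and Ccne2 varied together over the mice (Pearson r of 0.72 to 0.81), so their signs are not independent. Among the inhibitors, Cdkn1b had 0.28 ± 0.13 (adjusted p = 0.227), Cdkn2b -0.13 ± 0.23 and Cdkn2c -0.04 ± 0.13. The Ccnd2 call held in 25 of 32 fits without 1 mouse, among them the fit without 54F (adjusted p = 0.0425), and was lost without 52M, 57F, 58M, 61F, 61M, 69M or 73F, with an adjusted p of up to 0.0683. Leaving out the 9 muscle-rich libraries, a choice made after the data were seen, gave 0.71 ± 0.19 (adjusted p = 0.0975), and the fibroblast marker level as a covariate gave 0.61 ± 0.15 (adjusted p = 0.0688). In these fits, as in all others run, the estimate stayed between 0.56 and 0.71, while its adjusted p lay on either side of the threshold.

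**Figure D5:**
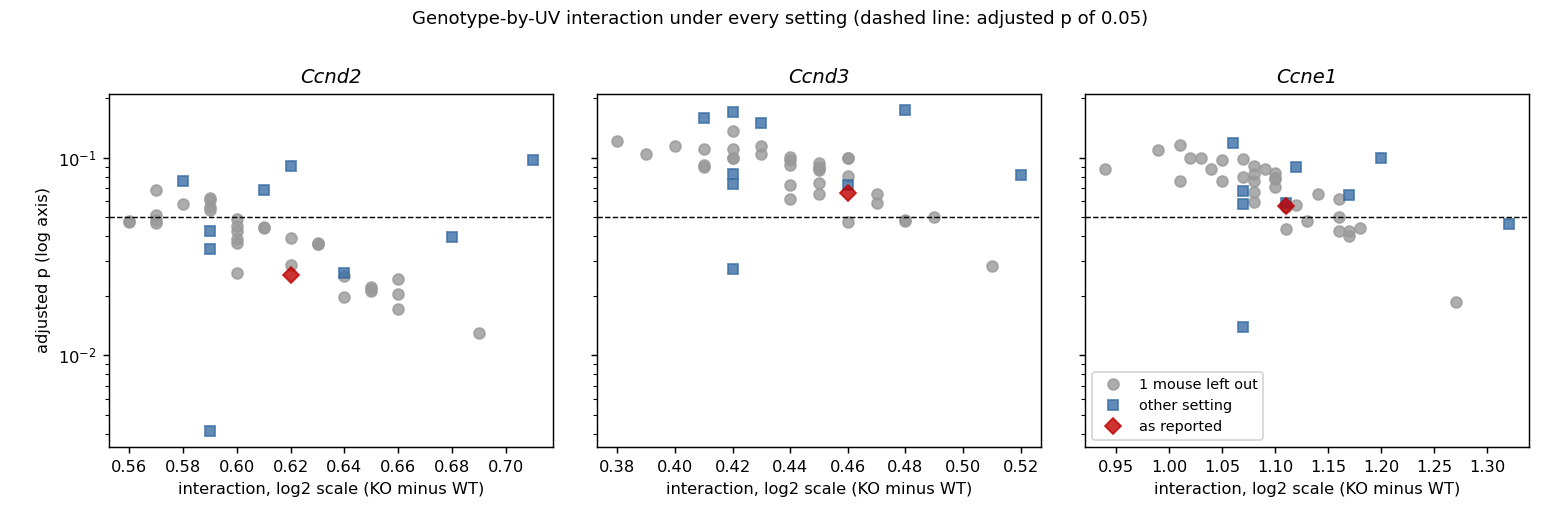
Genotype-by-UV interaction of Ccnd2, Ccnd3 and Ccne1 on the log2 scale (horizontal axes, a range of its own for each gene that does not start at 0) against its adjusted p (vertical axis, log scale), with grey points for fits without 1 mouse, blue squares for other settings and a red diamond for the value as reported. The limma-trend fit that took shared mouse numbers as a block is drawn in grey too, although it left out no mouse. The reported value lies below the dashed line at 0.05 for Ccnd2 and above it for Ccnd3 and Ccne1.

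UV responses did not differ detectably by sex. The sex-by-UV interaction was called for none of the 10 genes in WT or in KO mice, nor for any other gene in edgeR (0% of all genes in each genotype), and none of the 10 reached an unadjusted p under 0.05. Among all genes, 419 in WT and 1482 in KO mice (2.70% and 9.53%) had an unadjusted p under 0.05, and DESeq2 called 3 and 35, none of them among the 10. The interaction (females minus males) of the cyclins ranged in KO mice from -0.34 ± 0.32 for Ccnd1 to 0.52 ± 0.40 for Ccne1.

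The genes that act around G1 cyclins were followed through 6 lists of 38 genes. In WT mice, 9 of the 38 rose, 18 fell and 11 were not called, beside 34.5% of all genes that rose and 36.5% that fell, and the median log2 change was -0.12 against -0.01 for all genes. In KO mice, 13 rose, 17 fell and 8 were not called, beside 37.3% and 33.5% of all genes, with a median of -0.13 against 0.09. None was called between genotypes in either state or in the genotype-by-UV interaction. All 3 pocket protein genes fell in WT mice, Rbl2 by 1.70, Rb1 by 0.76 and Rbl1 by 0.42 on the log2 scale, and Rbl2 (-1.38 ± 0.10) and Rb1 (-0.83 ± 0.08) fell in KO mice. Of the 10 genes for degradation of G1 cyclins and p27, 6 fell in each genotype, led by Fbxo31, which encodes an F-box protein that targets cyclin D1 (-1.99 ± 0.12 in WT and -1.64 ± 0.12 in KO mice). Ambra1, the receptor of the ligase that removes D-type cyclins, changed by -0.86 ± 0.09 and -1.06 ± 0.09. Cks1b, the cofactor with which SKP2 recognises p27, rose by 0.72 ± 0.17 in WT mice (adjusted p = 0.000473) and by 1.49 ± 0.17 in KO mice (adjusted p = 1.37e-08), and its genotype-by-UV interaction was not called (adjusted p = 0.0989).

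Of the 8 Polycomb genes that can repress the INK4 locus, 3 rose and 3 fell in each genotype. Cbx7 fell by 3.14 in WT mice (adjusted p = 1.26e-15) and by 3.09 in KO mice (adjusted p = 1.90e-15) on the log2 scale, while Bmi1 rose by 0.58 ± 0.08 and 0.78 ± 0.08 and Eed by 0.58 ± 0.09 and 0.77 ± 0.09. Of the 8 regulators of cyclin D and p27 transcription, 2 rose and 4 fell in each genotype. Ets1 rose by 1.62 ± 0.10 in WT and 1.79 ± 0.10 in KO mice. Foxo4, of the FOXO family that activates the p27 gene, changed by -1.27 ± 0.09 and -1.19 ± 0.09, and Tcf7l2, a nuclear partner of β-catenin, by -1.36 ± 0.13 and -1.10 ± 0.13. Among the 7 genes for G1 CDKs and their activators, Mnat1 and Ccnh, subunits of the CDK-activating kinase, rose in WT mice by 0.21 ± 0.08 and 0.20 ± 0.09, and Cdk2 (0.48 ± 0.08), Cdc25a (0.48 ± 0.13) and Ccnh (0.25 ± 0.09) were among 4 that rose in KO mice. Cdkn2d, the fourth INK4 gene, changed by -0.69 ± 0.10 in WT and -0.35 ± 0.10 in KO mice. Cdkn3, which shared its list, changed by -1.07 ± 0.34 in WT mice (adjusted p = 0.00634) and was not called in KO mice. It was called in WT females (-1.32 ± 0.48) and not in WT males, without a call in the sex-by-UV interaction.

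Proliferation markers were compared because G1 cyclins rise in dividing cells. Of 9 markers, 3 rose and 4 fell in WT mice after UV, beside 34.5% and 36.5% of all genes. In KO mice, 5 rose and none fell, beside 37.3% and 33.5% of all genes. Within WT mice, 3 rose and none fell in males, and 2 rose and 4 fell in females. Of all genes, 60.9% were called in either direction in WT males and 61.3% in WT females. No marker was called in the sex-by-UV interaction. Mcm5, of the DNA replication helicase, rose by 0.93 ± 0.20 in WT and 1.63 ± 0.20 in KO mice, whereas Mki67 changed by -1.15 ± 0.25 in WT mice (adjusted p = 0.000216) and -0.49 ± 0.25 in KO mice (adjusted p = 0.0830). No marker was called in the genotype-by-UV interaction. Across the 32 mice, after subtraction of group means, the summed markers had a Pearson r of 0.90 with Ccne2, 0.86 with Ccnd1 and 0.83 with Ccne1, against 0.50 with Ccnd2, 0.41 with Ccnd3, -0.36 with Cdkn1b and -0.55 with Cdkn2b. With the summed basal keratinocyte markers, r was 0.78 for Ccnd1 and 0.74 for Ccne2. These points share libraries and scaling and describe how mice of a group varied.

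By the same measure, each of the 8 genes with a mean of at least 1 cpm was set beside the single gene of 13084 others whose deviations were most like its own. Ccne2 paired with Mastl (r = 0.94), a mitotic kinase, Ccnd1 with the Notch ligand gene Jag2 (0.93), and Ccne1 with Ccnb1, the mitotic cyclin B1 (0.88). Lower values were found for Cdkn2b with Mettl3 (0.82), Ccnd3 with Anxa4 (0.78), Cdkn1b with Arcn1 (0.76), Ccnd2 with Ces1d (0.74) and Cdkn2c with Zfp940 (0.70). Each of these values is the highest of 13084 and so is high by selection. How high such a maximum lies between unrelated genes was not tested. Within the 8 genes, the closest were Ccnd1 and Ccne2 (0.81), while the inhibitors Cdkn1b and Cdkn2b (0.12) and Cdkn2b and Cdkn2c (0.03) had values near 0.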

How the data were processed

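RNA-seq was performed on the epidermis of 32 mice (8 groups of 4, TruSeq Stranded mRNA libraries). The deposited values are whole-number read counts per gene, which the authors made, per the submitters' processing notes, with bcl2fastq, cutadapt 1.8, STAR 2.5.3a and HTSeq 0.9.1 on GRCm38. The paper's methods name GRCh38.102 instead, and coordinates rest on the notes. Of 55401 identifiers, 55141 matched GENCODE M21, the source of symbols and of exon length, which is the union of all exons of a gene. HTSeq's reads without a gene (6.8 to 9.75%) were left out of library sizes.

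A gene entered the fit if any of the 32 mice reached 1 cpm, which left 15546. Counts were TMM-scaled and fitted with 1 mean per group in edgeR 4.0.16 (R 4.3.3), quasi-likelihood test, and comparisons averaged the sexes. P values were two-sided and adjusted by the Benjamini-Hochberg method over all genes tested. Depth limits counting error only, since reads carry no molecular identifiers. The labels name separate mice but no litter, cage or batch.

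The alternatives were RLE scaling, total counts, DESeq2 1.42.0, limma-trend (limma 3.58.1), filterByExpr, no filter, pooled sexes, 1 genotype fitted alone and each mouse left out. Additions made after seeing the data left out the muscle-rich libraries, took the log2 fibroblast marker sum as a covariate, or used the number shared by 2 mouse names as a block. Named were all 10 genes, Ppard, up to 3 called genes per list and comparison with the largest change, and 1 most similar gene each. The genes and lists were chosen with earlier results of these data known. Correlations carry no p-value.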

Additional observations from a re-analysis of the deposited data

Results flagged for a closer look

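In 80 sets of 4 mice (10 genes in 8 groups), 2 had a mouse set apart from the other 3 by Dixon's criterion on log2 cpm, and chance alone flags about 1 set in 20. Ccnd1 was lowest in mouse 57F among WT females after UV, with 97.7 cpm against 128 to 134 cpm. Cdkn2c was lowest in mouse 54F among KO females after UV, with 14.2 cpm against 18.8 to 19.2 cpm, and this is the mouse with 2184 cpm of fibroblast markers. The UV response of Ccnd2 differed between the genotypes by the interaction term, at 0.62 on the log2 scale (SE 0.14, adjusted p = 0.0254 in edgeR's quasi-likelihood test). WT UV mice had a median of 39.5 cpm against 50.7 cpm in WT Control mice, and KO UV mice 51.8 cpm against 41.8 cpm in KO Control mice.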

How the results depend on the processing

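Over the 5 comparisons between treatments and genotypes, the 10 genes gave 2107 values under other settings or without 1 mouse. Of these, 1972 kept their sign and their side of the threshold, 60 lost a call, 26 gained one and 49 changed sign, all of them values that were not called. The number of the 10 called between genotypes after UV (2) was 1 with RLE scaling, limma-trend and filterByExpr and 0 with total counts, no filter, pooled sexes, without the muscle-rich libraries and with the fibroblast covariate. The number called in the interaction (1) was 3 with DESeq2 and 0 with no filter, pooled sexes and without the muscle-rich libraries. Without 1 mouse, these numbers ranged from 0 to 2 and from 0 to 3. The Ccnd2 difference after UV was lost without 34M, 38M, 51F, 52M, 54F, 56M, 57F, 57M, 58M, 59F, 60F, 61F, 61M, 63F, 66F, 71M, 73F or 74F (0.30 to 0.35, adjusted p of 0.0501 to 0.115). The Cdkn2a call in WT mice was lost with no filter (adjusted p = 0.0559), Ccnd3 was called in WT mice with RLE scaling (0.0484) and DESeq2 (0.0454), and Ccne2 in KO mice fitted alone (0.0440). Cdkn1c had no value without mouse 54F, and its few reads and those of Cdkn2a limit both. The cause was not tested.

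Sign changes between genotypes after UV were 0.08 for Ccnd1 and -0.07 for Cdkn2b without the muscle-rich libraries, -0.01 for Cdkn2b with filterByExpr, no filter and the covariate, and 0.07 for Ccnd1, -0.41 for Cdkn1c and 0.01 for Cdkn2c with the covariate. In the interaction, Cdkn1c was -0.03 with RLE scaling, -0.04 with filterByExpr, -0.05 with no filter, -0.29 with pooled sexes and -0.90 with the covariate, Cdkn2a 0.01 with limma-trend, 0.02 with the replicate block and 0.41 with the covariate, and Cdkn2c 0.02 with total counts, 0.03 without the muscle-rich libraries and 0.04 with the covariate. Without 1 mouse, the ranges that crossed 0 were -0.28 to 0.06 for Ccne2 (UV in WT mice), -0.07 to 0.02 for Cdkn2c (genotype in Control mice), -0.12 to 0.01 for Ccnd1 and -0.05 to 0.09 for Cdkn2b (genotype after UV), and -0.79 to 0.41 for Cdkn1c and -0.46 to 0.16 for Cdkn2a (interaction).

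Over all genes, 514 were called between genotypes after UV, and 1116 with DESeq2, 260 with limma-trend, 263 with no filter, 65 with the covariate and 26 without the muscle-rich libraries. In the interaction, 119 were called, and 841 with DESeq2, 55 with no filter, 31 with the covariate, 30 without the muscle-rich libraries and 23 with pooled sexes. Among Control mice, 32 were called, 78 with DESeq2 and 18 without the muscle-rich libraries. The share of calls with a positive sign after UV, 81.3%, was 70.3% with RLE scaling and 71.9% with total counts, and that in the interaction, 67.2%, was 56.3% and 77.3%. In the names of 16 mice, 8 numbers recur (52F and 52M, for example), which the labels tie to no litter, cage or batch. Deviations from group means of such pairs had an r between -0.19 and 0.10 over genes. With that number as a replicate block in limma-trend, a fit added after seeing the data, 1 of the 10 was called between genotypes after UV and 1 in the interaction, as in limma-trend without the block, and 275 and 101 of all genes against 260 and 96.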
